A study of Mus musculus with 150 samples.

Results

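Dzip3, Cip2a and Myh15 are 3 neighbouring genes on mouse chromosome 16 (mm10), at the place where the replication timing score falls from early to late to the right of the edited domain. They were chosen by position, and their score in each profile was the mean over the table positions inside the gene body. They are 3 of the 679 protein-coding genes of chromosome 16 that have a score. Dzip3 (gene ID 224170, 48924228 to 48994142) covers 69.9 kb and 14 positions, Cip2a (gene ID 224171, 48994157 to 49019716) 25.6 kb and 5 positions, and Myh15 (gene ID 667772, 49057400 to 49199563) 142.2 kb and 28 positions. No edit in the series cuts any of them. The right end of interval c, the rightmost part of the domain that was deleted together with others, lies 303.9 kb left of Dzip3, 373.8 kb left of Cip2a and 437.0 kb left of Myh15.

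Mammalian chromosomes replicate in large domains that start at characteristic times in S phase. Between an early and a late domain lies a timing transition region, where the time of replication changes gradually along the DNA and which holds few efficient origins. Early replication tends to go with open, active chromatin, and many domains change their timing as stem cells differentiate. Dzip3 encodes a RING-type E3 ubiquitin ligase that binds RNA and acts on histone H2A. Cip2a encodes an inhibitor of the phosphatase PP2A, which also works with TOPBP1 on broken chromosomes in mitosis. Myh15 encodes a slow-type myosin heavy chain.

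Replication timing was measured by Repli-seq: cells took up BrdU for 2 h, were sorted by DNA content into an early and a late S phase fraction, and the BrdU-marked DNA of each was sequenced. The 150 samples are such fractions, 2 to a profile, and 69 profiles cover chromosome 16 with 1 score per 5 kb. A higher score means earlier replication. The score has no stated log base, its read depth is unknown, and neighbouring positions are nearly equal because the deposited profiles are smoothed (median step 0.0141), so the positions of a gene are not independent measurements.

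The cells were mouse embryonic stem cells (mESC) with CRISPR deletions or inversions. In cas/129 hybrid cells each profile has a score for the svim and for the cast allele. The hybrid cells gave 50 mESC profiles from 43 clones of 26 genotypes, kept with 2i and LIF. The 6 genotypes with the lowest mean Dzip3 score on svim delete combinations of interval a (48308399 to 48311882), interval b (48396806 to 48437301), interval c (48581359 to 48620367) and a 4 kb interval (48280115 to 48284009): abc.del (clones A6 and E2), ab.del (D10 and D12), ac.del (E4 and H8), bc.del (B3 and D12), c.del (A12, B11, C6 and C9) and 4k.b.c.del (G12). They were set apart after these values were known, and at Cip2a and Myh15 other genotypes rank among them. No listed cas/129 sample is unedited. The table holds 6 further columns, named F121.9, 4 with nesc and 2 with NPC in the name and none with an edit. No listed sample carries these names, so the columns stayed out, and neither the edits nor the NPC profile is set against them. The reference level comes from 5 clones whose edits leave the 4 intervals in place, called comparison clones here: 24.5kinv 3, 14kdel D11, 29kdel D8, and the 30kdel clones B11 and C2. The 30kdel (48665576 to 48695490) is the labelled edit nearest to the 3 genes, ending 228.7 kb left of Dzip3, and it lies between the domain and the genes. Further profiles came from 3 clones of the v6.5 hybrid background (C57BL and svim alleles), 15 non-hybrid profiles without separated alleles, among them the unedited 46C line, and 1 cas/129 profile titled NPC. The labels give the non-hybrid deletions and inversions as homozygous, except the heterozygous 500kdel. Those cells grew in serum with LIF, so background and medium cannot be told apart between them and the hybrids.

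The labels do not say which hybrid allele carries an edit. Among 35 cas/129 deletion clones with positions inside their deletion, 32 had more blank positions there on svim, 1 on cast (680kdel 79) and 2 were equal. Nothing in the labels says that clones came from separate cultures, so p-values measure the spread among these clones. Every cas/129 comparison below shares the same 5 comparison clones, so the genotypes' differences are not independent of each other. Only replication timing was deposited, so the cell type could not be checked against expressed markers.

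The annotated bodies of Dzip3 and Cip2a lie on opposite strands, start to start, with 14 bp between them. Their scores varied together most closely among the members, but they also adjoin on a smoothed score. A link to the arrangement was not tested. The promoter windows of Cip2a and Myh15 (RefSeq, GRCm38.p6, plus strand, 250 bases before to 50 after the start) are shown for the start of the earlier-scoring pair and that of the later-scoring gene. The start is that of the transcript in the promoter table, which for Cip2a lies inside the annotated gene body. Capitals mark the 14 bases between the gene bodies of Dzip3 and Cip2a.
Cip2a, chr16:48993938-48994237: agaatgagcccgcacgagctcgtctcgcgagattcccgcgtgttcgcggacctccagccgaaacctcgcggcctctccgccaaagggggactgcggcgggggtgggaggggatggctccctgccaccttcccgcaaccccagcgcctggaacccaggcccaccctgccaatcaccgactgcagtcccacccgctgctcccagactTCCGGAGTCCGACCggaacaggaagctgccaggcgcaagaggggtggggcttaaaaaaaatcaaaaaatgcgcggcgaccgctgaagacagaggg
Myh15, chr16:49057150-49057449: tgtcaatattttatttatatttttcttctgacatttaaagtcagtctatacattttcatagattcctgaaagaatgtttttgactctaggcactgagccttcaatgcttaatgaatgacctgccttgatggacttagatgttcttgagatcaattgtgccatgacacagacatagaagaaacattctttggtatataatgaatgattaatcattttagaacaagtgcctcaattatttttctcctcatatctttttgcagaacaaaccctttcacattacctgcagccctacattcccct
The Cip2a window, which spans that gap, holds 27 CG dinucleotides (the motif CG reads the same on both strands) and 65.7% G and C, and 15.5% of 32851 mouse promoter windows hold at least as many CG. The Myh15 window holds 0 CG and 33.7% G and C, and 5.43% of the promoter windows hold none. The median window holds 7.

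In the comparison clones the score stepped down from Dzip3 to Myh15 on both alleles. On svim, Dzip3 scored 0.32 in 30kdel B11, 0.31 in 30kdel C2, 0.08 in 24.5kinv 3, -0.57 in 14kdel D11 and -0.62 in 29kdel D8. Its mean was -0.10 ± 0.47 (SD, n = 5), Cip2a averaged -0.43 ± 0.55 and Myh15 -1.54 ± 0.90. On cast the means were 0.08 ± 0.52 for Dzip3, -0.49 ± 0.73 for Cip2a and -1.77 ± 1.09 for Myh15. Dzip3 thus lay near 0, between early and late, and Myh15 was late. The alleles did not differ by more than the spread of these clones: svim minus cast was -0.17 ± 0.55, 0.05 ± 0.49 and 0.23 ± 0.30 for Dzip3, Cip2a and Myh15 in that order.

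Over all 43 clones, the lowest, median and highest svim scores were -2.16, -0.59 and 0.82 for Dzip3, -2.20, -1.09 and 0.35 for Cip2a, and -2.89, -2.10 and -0.38 for Myh15. On cast they were -1.22, 0.07 and 1.10 for Dzip3, -1.75, -0.48 and 0.78 for Cip2a, and -2.86, -1.98 and -0.17 for Myh15. Myh15 was below 0 in 43 of 43 clones on each allele. Dzip3 was below 0 in 38 of 43 clones on svim and in 19 of 43 on cast. Repeat libraries of a clone differed by a median of 0.21 for Dzip3, 0.16 for Cip2a and 0.29 for Myh15 over 15 pairs of columns, but by up to 1.06, 1.25 and 1.53.

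Dzip3 and Cip2a had their lowest svim scores in clones that lack interval c or several of the intervals. Clone G5 of a.del, which lacks interval a alone, came close, at -1.41 for Dzip3 and -1.83 for Cip2a. The 4k.b.del clones, which lack the 4 kb interval and interval b, scored -0.26 (B1) and -0.05 (B4) for Dzip3. Longer deletions that remove both the 4 kb interval and interval a lay inside the comparison clones' range. Their mean Dzip3 scores on svim were -0.18 (100kdel), -0.17 (145kdel), -0.42 (145k.30kdel) and -0.004 (435kdel). The 28kdel and 28.5kdel, which remove interval a, scored -0.27 and -0.29. Lacking several intervals thus did not always go with a low Dzip3 score. The cast allele of the lowest clones differed less, but they were picked on svim, which by itself favours smaller differences on cast. On svim no difference of the 3 genes passed the test across all genes. In abc.del, Dzip3 scored -1.41 in A6 and -1.65 in E2 on svim, against -0.62 to 0.32 in the comparison clones. Cip2a scored -1.74 and -1.83 in those abc.del clones, against -1.22 to 0.03. Both abc.del clones lay below all 5 comparison clones for these genes, which held for 3.53% of all genes. Myh15 scored -2.17 and -2.49 in abc.del, within the comparison clones' -2.54 to -0.38. The limma differences were -1.44 ± 0.40 (SE, n = 2 and 5 clones) for Dzip3, -1.35 ± 0.42 for Cip2a and -0.79 ± 0.52 for Myh15. None of the 3 passed the test, with adjusted p of 0.204, 0.39 and 0.996, and 1.03% of all genes were called lower in that fit.

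**Figure D1:**
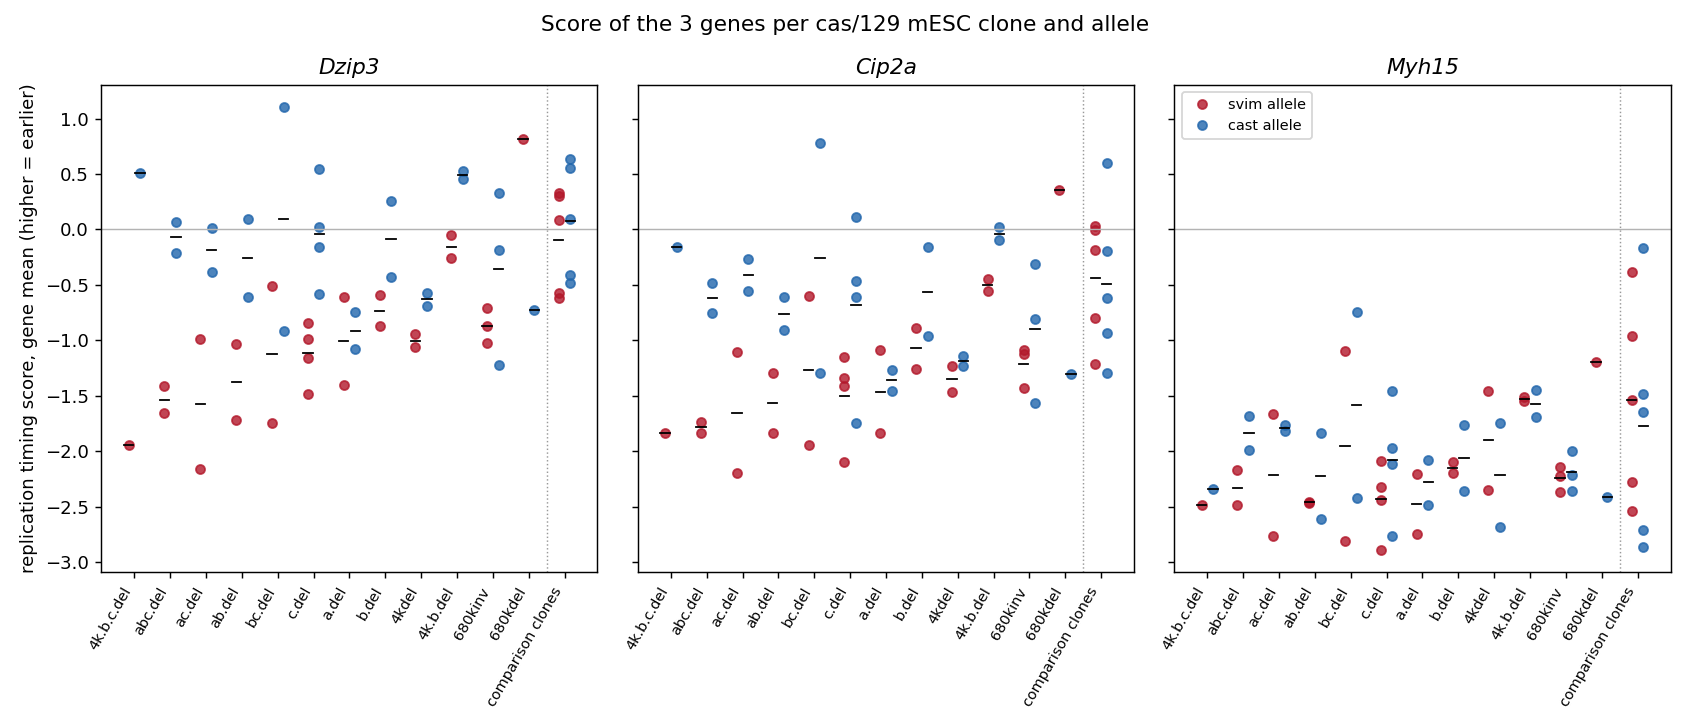
Replication timing score of Dzip3, Cip2a and Myh15 (1 panel each) in cas/129 clones of 12 genotypes, with the 5 comparison clones rightmost. Red points are clones on svim, blue points the same clones on cast, and black bars the means. On svim the abc.del clones lie at -1.41 and -1.65 for Dzip3, below all comparison clones, while for Myh15 they lie within the comparison range.

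The other 5 genotypes are set against the same comparison clones. The only 4k.b.c.del clone, G12, scored -1.95 for Dzip3, -1.84 for Cip2a and -2.49 for Myh15 on svim. In ab.del, Dzip3 scored -1.72 in D10 and -1.04 in D12, and in ac.del -2.16 in H8 and -0.99 in E4. The 4 c.del clones scored -1.48 (C9), -1.16 (A12), -0.99 (B11) and -0.84 (C6) for Dzip3. The bc.del clones were far apart, with Dzip3 at -1.75 in D12 and at -0.51 in B3, which lies inside the comparison range.

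Clones of ab.del, ac.del, c.del and 4k.b.c.del lay below all comparison clones at Dzip3, and those of ab.del and 4k.b.c.del also at Cip2a. That held for 3.68% of all genes in ab.del, 3.09% in ac.del, 2.65% in c.del and 16.6% in 4k.b.c.del, whose single clone makes it easy to meet. In bc.del it held for 0 of the 3 genes and for 0.736% of all genes. The limma differences at Dzip3 were -1.85 ± 0.59 in 4k.b.c.del, -1.48 ± 0.47 in ac.del, -1.28 ± 0.41 in ab.del, -1.03 ± 0.48 in bc.del and -1.02 ± 0.30 in c.del. At Myh15 they were -0.95 ± 0.72, -0.67 ± 0.56, -0.92 ± 0.52, -0.42 ± 0.62 and -0.89 ± 0.41 in the same genotypes. The bc.del value at Myh15 is 0.44 without clone D12. Over the 6 genotypes, 0 of 18 tests of the 3 genes on svim passed the adjusted threshold of 0.05, and 11 had an unadjusted p below it, as did 3.38% of the tests over all genes and all 26 genotypes. The 6 genotypes were picked by their low Dzip3 score on svim, which raises such a count. It is therefore no separate support, and the 3 neighbouring genes are not independent tests. The share of all genes called lower on svim was 1.03% for ab.del, 0.884% for ac.del, 0.295% for c.del, and 0% for bc.del and 4k.b.c.del.

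On cast the same 6 genotypes differed from the comparison clones by -0.56 to 0.43 over the 3 genes. None of these 18 tests passed, and 0 had an unadjusted p under 0.05 in limma. The genotypes were picked on svim, so smaller differences on cast are no separate support for a difference between alleles. In abc.del, for instance, Dzip3 scored 0.07 in A6 and -0.21 in E2 on cast, inside the comparison clones' -0.48 to 0.64. In 4k.b.c.del G12, Dzip3 scored -1.95 on svim and 0.51 on cast, the widest gap between alleles of any clone at this gene.

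Setting svim against cast within a clone narrowed the spread of the comparison clones at Myh15 (SD 0.30, against 0.90 on svim alone) but not at Dzip3 (0.55, against 0.47). For Dzip3, svim minus cast was -1.49 in A6 and -1.44 in E2 of abc.del, against -0.67 to 0.74 in the comparison clones. For Cip2a it was -1.25 and -1.08, against -0.57 to 0.75, and for Myh15 -0.49 and -0.50, against -0.21 to 0.53. All 3 genes were therefore lower in both abc.del clones than in any comparison clone, as were 3.53% of all genes. The allele difference departed from that of the comparison clones by -1.29 ± 0.33 (SE, n = 2 and 5) at Dzip3, -1.22 ± 0.31 at Cip2a and -0.73 ± 0.26 at Myh15, with limma adjusted p of 0.0856, 0.0856 and 0.609. In that fit 1.33% of all genes were called lower. Without comparison clone 24.5kinv 3, Dzip3 and Cip2a passed, with limma adjusted p of 0.0476 and 0.0168.

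In 4k.b.c.del the allele difference of Dzip3 was -2.45 in G12, and it departed from that of the comparison clones by -2.28 ± 0.46 (SE, n = 1 and 5, limma adjusted p = 0.0301). This was the 1 call among 78 tests of the 3 genes on the allele difference over all 26 genotypes, a family in which 0.34% of the tests over all genes were called. It rests on 1 clone, and without comparison clone 30kdel C2 the limma adjusted p is 0.0852. Leaving out 24.5kinv 3 or 29kdel D8 adds Cip2a as a call, with limma adjusted p of 0.0479 and 0.0334. Cip2a departed by -1.74 ± 0.43 (limma adjusted p = 0.143) and Myh15 by -0.38 ± 0.36 (limma adjusted p = 0.962). In that fit 0.884% of all genes were called lower.

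Both bc.del clones, so far apart on each allele alone, lay below every comparison clone in the allele difference. For Dzip3 it was -1.61 in B3 and -0.83 in D12, for Cip2a -1.38 and -0.65, and for Myh15 -0.35 and -0.39. All 3 genes thus met this condition, as did 2.36% of all genes. On cast, B3 scored 1.10 and D12 -0.92 for Dzip3, so the clones differed on both alleles in the same direction. The departures in bc.del were -1.05 ± 0.36, -1.07 ± 0.34 and -0.61 ± 0.26, and none passed (limma adjusted p = 0.905 for each). In the other 3 genotypes the departures at Dzip3 were -0.95 ± 0.33 in ab.del (limma adjusted p = 0.398), -1.22 ± 0.35 in ac.del (0.256) and -0.90 ± 0.27 in c.del (0.492). Over the 6 genotypes, 15 of 18 such tests had an unadjusted p under 0.05, as did 5.16% of the tests over all genes and all 26 genotypes. This count too is raised by the choice of the genotypes on their svim score at Dzip3, and is no separate support.

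The share of genes called lower for the allele difference was 1.18% for ac.del, 1.03% for ab.del, and 0.589% for bc.del and c.del alike. Every clone lay below every comparison clone in the allele difference for 2 genes (Dzip3 and Cip2a) in ab.del and 4k.b.c.del, and 1 (Dzip3) in ac.del and c.del. Among all genes this held for 5.01% in ab.del, 12.7% in 4k.b.c.del, 3.68% in ac.del and 0.736% in c.del.

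The size of the svim difference became smaller along the DNA toward and through the 3 genes. In abc.del it was -4.62 just right of interval c, -1.60 at the left end of Dzip3, -1.37 at its right end, -1.21 at the left end of Myh15 and -0.33 at Myh15's right end. In ac.del it was -3.15, -1.65, -1.30, -0.95 and -0.55 at those 5 places, and in 4k.b.c.del -2.81, -2.10, -1.55, -1.09 and -0.94. In ab.del it was -1.85, -1.42, -1.15, -1.15 and -0.66. The c.del profile was nearly flat from Dzip3 to the left end of Myh15, with -1.69 beside interval c, then -1.03, -1.05 and -1.11, and -0.71 at Myh15's right end. In bc.del the values were -1.45, -1.18, -0.90, -0.60 and -0.37. The 6 values thus ran from -4.62 to -1.45 beside interval c and from -2.10 to -1.03 at the left end of Dzip3.

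**Figure D2:**
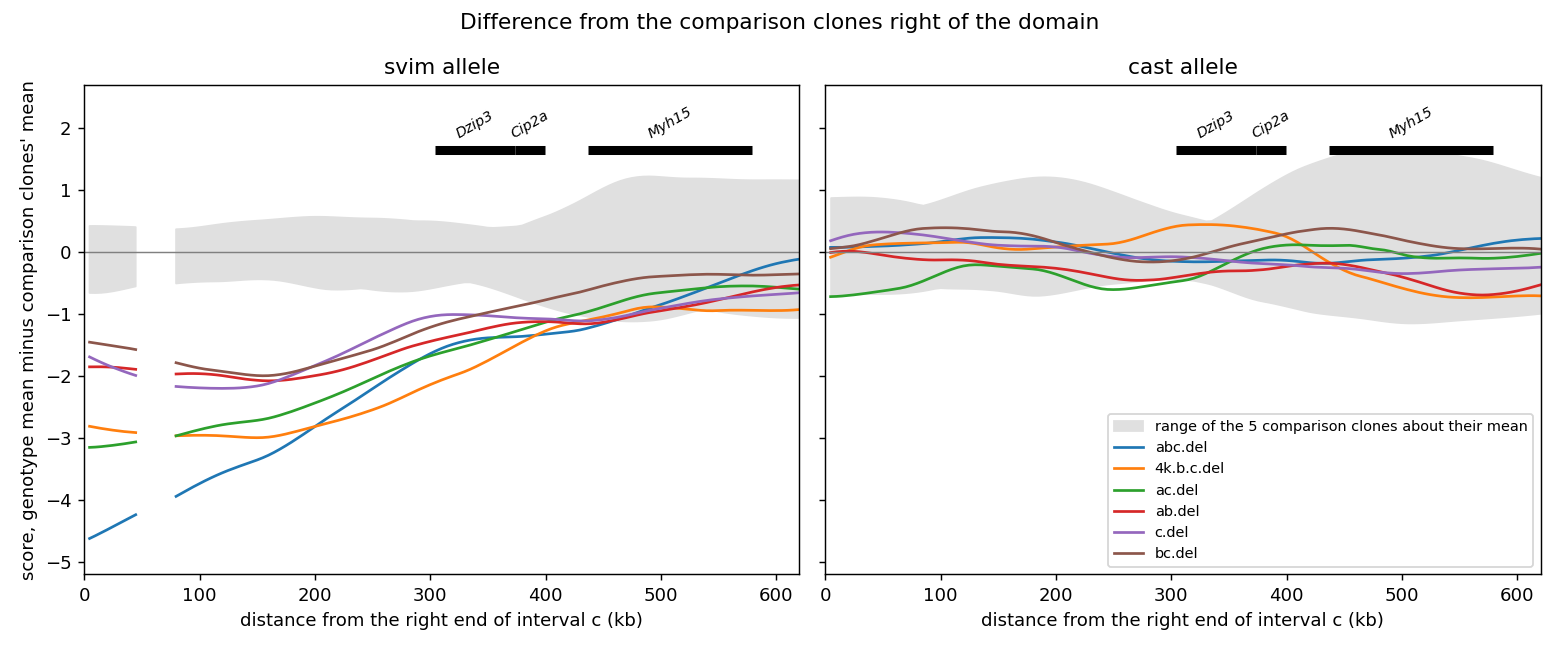
Score of a genotype's mean minus the mean of the comparison clones, against the distance in kb from the right end of interval c, on svim (left) and cast (right). Lines are the 6 genotypes, the grey band is the range of the 5 comparison clones around their mean, and black bars are Dzip3, Cip2a and Myh15. The svim lines start at -4.62 (abc.del) to -1.45 (bc.del) and lie closer together in the genes, the cast lines lie between -0.73 and 0.42 at the right end of interval c and the ends of the genes, and the gap on svim is the blank stretch of the 30kdel.

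How far each edit's difference reached depended on how it was counted. With 50 kb windows tested by limma over the whole chromosome, the run of called windows on svim ended at 48900000 in abc.del and at 48850000 in ab.del, ac.del and c.del, all left of Dzip3. No run was called on svim in bc.del or 4k.b.c.del. For the allele difference the run ended at 48900000 in abc.del and at 48850000 in ab.del, ac.del and c.del, and only that of 4k.b.c.del, ending at 48950000, entered Dzip3. The ab.del end moves to 48550000 on svim without 30kdel B11 or C2 and to 48400000 without either ab.del clone, and that of abc.del on svim moves to 48800000 without E2. It moves right to 48950000, inside Dzip3, in abc.del without 14kdel D11 or 24.5kinv 3 and in ac.del without 14kdel D11. No run is left in c.del, or for the allele difference in 4k.b.c.del, without 30kdel B11 or without 30kdel C2, nor in ac.del without H8.

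The reach was also counted, with no test, as the stretch from the right end of interval c onward over which every clone stayed below every comparison clone. The svim runs then went further. They ended at 49065000 in abc.del and ab.del, which is 444.6 kb from interval c and inside Myh15. The 4k.b.c.del run ended at 49060000, also inside Myh15, and the ac.del and c.del runs at 48995000, at the start of Cip2a. The bc.del run stopped at 48910000, left of Dzip3. For the allele difference the runs ended at 49225000 in abc.del, right of Myh15, at 49130000 in bc.del, 49095000 in 4k.b.c.del and 49090000 in ab.del, all inside Myh15, and at 49000000 in ac.del, inside Cip2a. In c.del the condition was not met at the right end of interval c, so no run began there. Such runs were not particular to these genotypes. Among genotypes with 1 clone, where the condition is easier to meet, 145kdel had a run to 49015000, inside Cip2a, for the allele difference. The 680kdel had 1 to 49005000, inside Cip2a, on cast. On svim the 435kinv run ended at 48870000, and that of comparison genotype 29kdel at 48860000, both left of Dzip3.

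Of the 5 listed genes left of Dzip3 (Morc1, which itself holds interval c and encodes an ATPase that silences transposons in the germ line; Trat1, an adaptor of the T-cell receptor, and the resistin-like genes Retnlb, Retnla and Retnlg), limma called 5 lower on svim in abc.del, 4 in ac.del and ab.del, 2 in c.del, and 0 in bc.del and 4k.b.c.del. For the allele difference it called 5 lower in abc.del, 4k.b.c.del and ac.del, and 4 in bc.del, c.del and ab.del. Of the 3 genes right of Myh15 that were found in the table (Ift57, a ciliary transport protein, Cd47, a surface protein that restrains phagocytosis, and Bbx), 0 were called on either allele in these genotypes. Retnlg, 51.6 kb left of Dzip3, differed by -2.15 ± 0.42 on svim in abc.del (limma adjusted p = 0.0163), against the -1.44 of Dzip3. To the right, Ift57 differed by -0.11 ± 0.43 (limma adjusted p = 0.996).

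The border was also read as a position, the first one right of interval c where the score falls below 0. In the comparison clones it lay between 48865000 and 49085000 on svim (median 48995000, inside Cip2a) and between 48925000 and 49115000 on cast (median 48975000, inside Dzip3). The upper end of both ranges was 24.5kinv 3, whose border lay at 48745000 on svim and 48740000 on cast when the scores were rescaled. On svim, abc.del, ac.del and 4k.b.c.del had no border because every clone was already below 0 at the first position right of interval c. One ab.del clone (D10) and 1 c.del clone were too. The rest lay left of the comparison clones, at 48685000 in ab.del D12, 48675000 and 48690000 in bc.del, and 48635000 to 48735000 in 3 c.del clones. On cast the same genotypes had their border between 48825000 and 49075000. Over all clones with a border on both alleles, svim lay left of cast in 30 of 34, by a median of 85.0 kb, and in 3 of the 5 comparison clones.

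**Figure D3:**
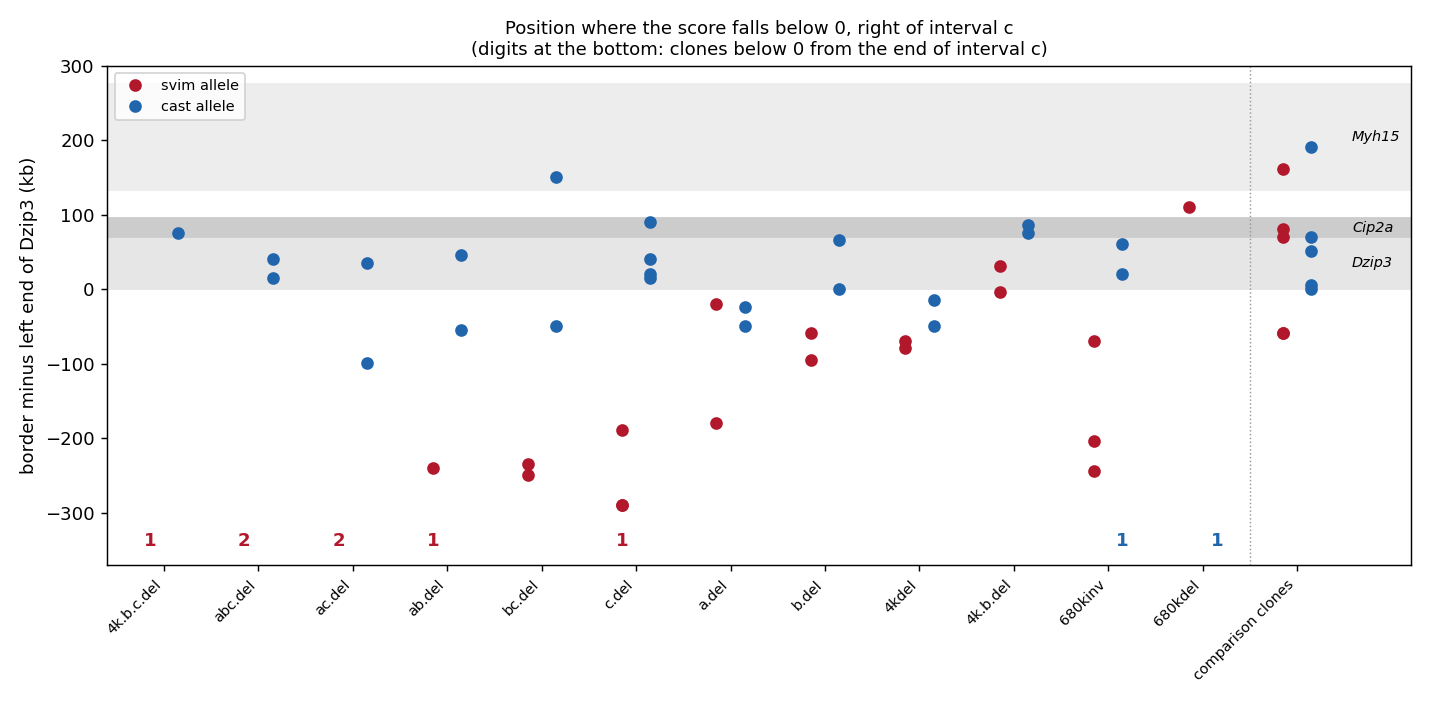
Position of the border (first position right of interval c with a score below 0) relative to the left end of Dzip3, in kb, per clone, red for svim and blue for cast, with the comparison clones rightmost. Digits at the bottom count clones already below 0 at the first position right of interval c. Comparison clones lie in or beside the genes, and svim of abc.del, ac.del and 4k.b.c.del has no border.

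Over all 26 genotypes limma called 0 of 78 tests on svim and 0 of 78 on cast. An unadjusted p under 0.05 was found in 18 on svim and 3 on cast, against 3.38% and 3.13% of the tests over all genes. For the allele difference 1 of 78 was called, with 19 at an unadjusted p under 0.05, against 5.16% over all genes. Of the 18 on svim 11, and of these 19 15, came from the 6 genotypes picked on their svim score, which raises both counts. The shares of all genes called in these families were 0.283% on svim and 0.125% on cast.

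The a.del clones gave similar values on both alleles. Dzip3 scored -0.61 in clone 53 and -1.41 in G5 on svim, and -0.74 and -1.08 on cast. The differences at Dzip3 were -0.91 ± 0.44 on svim and -0.99 ± 0.42 on cast (limma adjusted p = 0.306 and 0.211), so the allele difference departed by 0.08 ± 0.34. The 4kdel clones C6 and G4 scored -1.06 and -0.94 for Dzip3 on svim and -0.69 and -0.57 on cast. They lay below all comparison clones on svim for Dzip3 and Cip2a, as did 4.86% of all genes, and the Dzip3 difference was -0.91 ± 0.39 (limma adjusted p = 0.887). The b.del clones scored -0.59 (D10) and -0.87 (D6) for Dzip3 on svim, so that D10 overlapped the comparison clones. The svim difference at Dzip3 was -0.64 in b.del. It was 0.63 in 245kdel and -0.06 in 4k.b.del, whose deletions also include interval b.

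The 680kdel and 680kinv end at 48581357 and 48581356, beside interval c and 342.9 kb left of Dzip3. In 680kdel 79, the clone with blank positions on cast, Dzip3 scored 0.82 on svim and -0.73 on cast, and Cip2a 0.35 on svim and -1.30 on cast. On cast both lay below all comparison clones, as did 6.8% of all genes, and on svim both lay above them. The allele difference departed by 1.72 ± 0.46 at Dzip3, 1.60 ± 0.43 at Cip2a and 0.99 ± 0.36 at Myh15, with limma adjusted p of 0.264, 0.264 and 0.719 (n = 1 and 5). Without 30kdel B11 the limma adjusted p at Dzip3 is 0.0235. In 680kinv, Dzip3 scored -0.87 (clone 80), -1.03 (B10) and -0.71 (C5) on svim, below all comparison clones, as were 0.884% of all genes, with a difference of -0.77 ± 0.34 (limma adjusted p = 0.6). On cast, clone 80 scored -1.22 and B10 0.33, further apart than the whole range of the comparison clones.

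Among the comparison clones, the 30kdel clones had the highest Dzip3 scores on svim, 0.32 and 0.31, and the inverted clone 24.5kinv 3 had the highest Myh15 scores on both alleles. Myh15 scored -0.38 on svim and -0.17 on cast in 24.5kinv 3, against -2.54 to -0.96 on svim and -2.86 to -1.49 on cast in the other 4 clones. Its difference from them was 1.45 ± 0.57 on svim and 2.01 ± 0.58 on cast (SE, n = 1 and 4, limma adjusted p = 0.109 and 0.0598). On cast the limma adjusted p is 0.014 without 14kdel D11 and 0.0196 without 30kdel C2. This clone also stood apart elsewhere on the chromosome: limma called 3.09% of all genes higher in it on svim and 1.77% on cast, and 12450 kb and 7600 kb of 50 kb windows changed, against 0 kb for 30kdel, 29kdel and 14kdel. The 30kdel differed from the other comparison clones by 0.69 ± 0.56 at Dzip3 and 0.48 ± 0.63 at Myh15 on svim (limma adjusted p = 0.998 each).

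Across the 43 clones the 3 genes varied together, most of all Dzip3 and Cip2a, which adjoin. Pearson's r between Dzip3 and Cip2a was 0.97 on svim and 0.93 on cast, between Cip2a and Myh15 0.86 and 0.76, and between Dzip3 and Myh15 0.78 and 0.66 (n = 43 clones, which share genotypes and smoothing). With Morc1, inside the domain, Dzip3 had r of 0.69 on svim and 0.29 on cast. The alleles of a clone were more alike further right: r between svim and cast was -0.12 at Morc1, 0.39 at Dzip3, 0.46 at Cip2a and 0.74 at Myh15, with Spearman's rho of -0.02, 0.49, 0.46 and 0.69. Without the 2 clones farthest from the median on svim, r was -0.09, 0.50, 0.54 and 0.65 in the same order. Alleles of a clone share culture, sorting and library. Outside a 2 Mb region around the domain, the genes whose svim score followed the mean of the 3 genes most closely were Pou1f1 (r = 0.72), Chmp2b (r = 0.71), both 16.6 Mb away, and Fgf12 (r = 0.68), 20.8 Mb away, all over 43 clones. Inside it, Retnlg had r = 0.91.

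The order of the genotype means on svim differed between the genes. At Dzip3 the 6 latest of 26 genotypes were 4k.b.c.del, ac.del, abc.del, ab.del, bc.del and c.del, with means of -1.95, -1.58, -1.53, -1.38, -1.13 and -1.12. Neighbours in that order differed by less than the spread of their clones. At Cip2a bc.del stood at rank 8, after a.del and 4kdel. At Myh15 the latest genotype was the comparison genotype 29kdel at -2.54, followed by 4k.b.c.del at -2.49 and a.del at -2.48. The earliest was 680kdel at Dzip3 and Cip2a (0.82 and 0.35) and 24.5kinv at Myh15 (-0.38).

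In non-hybrid cells the unedited 46C profile scored -0.58 for Dzip3, -0.95 for Cip2a and -1.90 for Myh15, and its border lay at 48905000, left of Dzip3. Dzip3 was lowest in the 680kdel, at -2.23 in clone 13 and -2.31 in clone 16, and in the 345kdel, at -2.28. Cip2a was lowest in the 680kdel, at -2.59 and -2.84, followed by 245kdel 28 at -2.29 and the 345kdel at -2.14, and Myh15 was lowest in 245kdel 28, at -3.24. In the 345kdel and both 680kdel clones the score was already below 0 at the first position right of interval c. Dzip3 and Myh15 were then close together: in 680kdel 16 they scored -2.31 and -2.79, against -0.58 and -1.90 in 46C. The Dzip3 difference from 46C was -1.71 ± 0.52 in the 345kdel (SE, n = 1 and 1) and -1.69 ± 0.45 in the 680kdel (n = 2 and 1), with limma adjusted p of 0.0956 and 0.141. In these fits 1.33% of genes in the 345kdel and 0.444% in the 680kdel were called lower.

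Of the 33 tests of the 3 genes in non-hybrid genotypes, 0 passed in limma and 3 had an unadjusted p under 0.05. The matching share of all genes is not given here, so that count has no background and is not read as a result. The spread came from the 680kdel, whose clones were close together, and the 245kdel, whose clones scored 0.03 (25) and -1.10 (28) for Dzip3 and -0.48 and -2.29 for Cip2a. Without clone 25, or without clone 28, both genes gained calls in both large deletions, but the spread then came from the 680kdel pair alone. The SE was then the same at Dzip3 and Cip2a, 0.40 in the 345kdel and 0.35 in the 680kdel. These calls thus measure how close that pair was and are no support. The differences at Dzip3 stayed at -1.71 in the 345kdel and -1.69 in the 680kdel. The 435kdel scored -1.43 and the 100kdel -1.39 for Dzip3. The remaining 7 edited profiles, 2kdel, 350kdel, 45kdel, 500kdel, 350kinv, 45kinv and 245kdel 25, had Dzip3 between -0.48 and 0.03. Limma called 5 of the 5 listed genes left of Dzip3 lower in the 345kdel and 2 of 5 in the 680kdel, and Cd47, to the right of Myh15, higher in the 345kdel (1.95 ± 0.38, adjusted p = 0.0285).

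The 3 v6.5 clones have no comparison clone of their own background and no test. Dzip3 scored -1.09 on C57BL and -0.84 on svim in 100kdel C6, -0.20 and -0.04 in 18kdel H5, and -0.32 and -0.30 in 435kinv A4. Myh15 scored -2.27 and -2.09, -1.03 and -1.11, and -2.03 and -2.36 in the same clones. The 100kdel clone was thus the latest at Dzip3 on both alleles.

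In the NPC profile all 3 genes were late, and the step from Dzip3 to Myh15 was small. The profile comes from clone C3 of the 100kdel, whose repeat mESC libraries, averaged here, are its only match. It is titled NPC although its cell type label reads mESC. Dzip3 scored -3.59 in NPC and -0.22 in mESC on svim, and -3.68 in NPC and 0.19 in mESC on cast. Cip2a scored -3.27 in NPC and -0.64 in mESC on svim, and -3.65 and -0.33 on cast. Myh15 scored -3.27 in NPC and -1.92 in mESC on svim, and -4.28 and -2.31 on cast.

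NPC minus mESC was -3.37 for Dzip3, -2.63 for Cip2a and -1.35 for Myh15 on svim, and -3.87, -3.32 and -1.96 on cast. The median over all genes was -0.55 on svim (677 genes) and -0.37 on cast (679 genes), so the typical gene of the chromosome also scored lower in NPC. Differences of -2 or lower were found for 2 of the 3 genes on each allele, Dzip3 and Cip2a, against 13.3% of all genes on svim and 17.8% on cast. Only 19 of 677 genes had a lower difference than Dzip3 on svim and 29 of 679 on cast, while 202 and 129 lay below Myh15. Dzip3 minus Myh15 was -0.32 in NPC and 1.70 in mESC on svim, and 0.60 in NPC and 2.51 in mESC on cast. With 1 NPC profile, these differences have no replicate check on the NPC side. The repeat mESC libraries of C3 differed by 0.22 for Dzip3, 0.33 for Cip2a and 0.04 for Myh15 on svim. On cast those libraries differed by 0.07, 0.01 and 0.53.

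**Figure D4:**
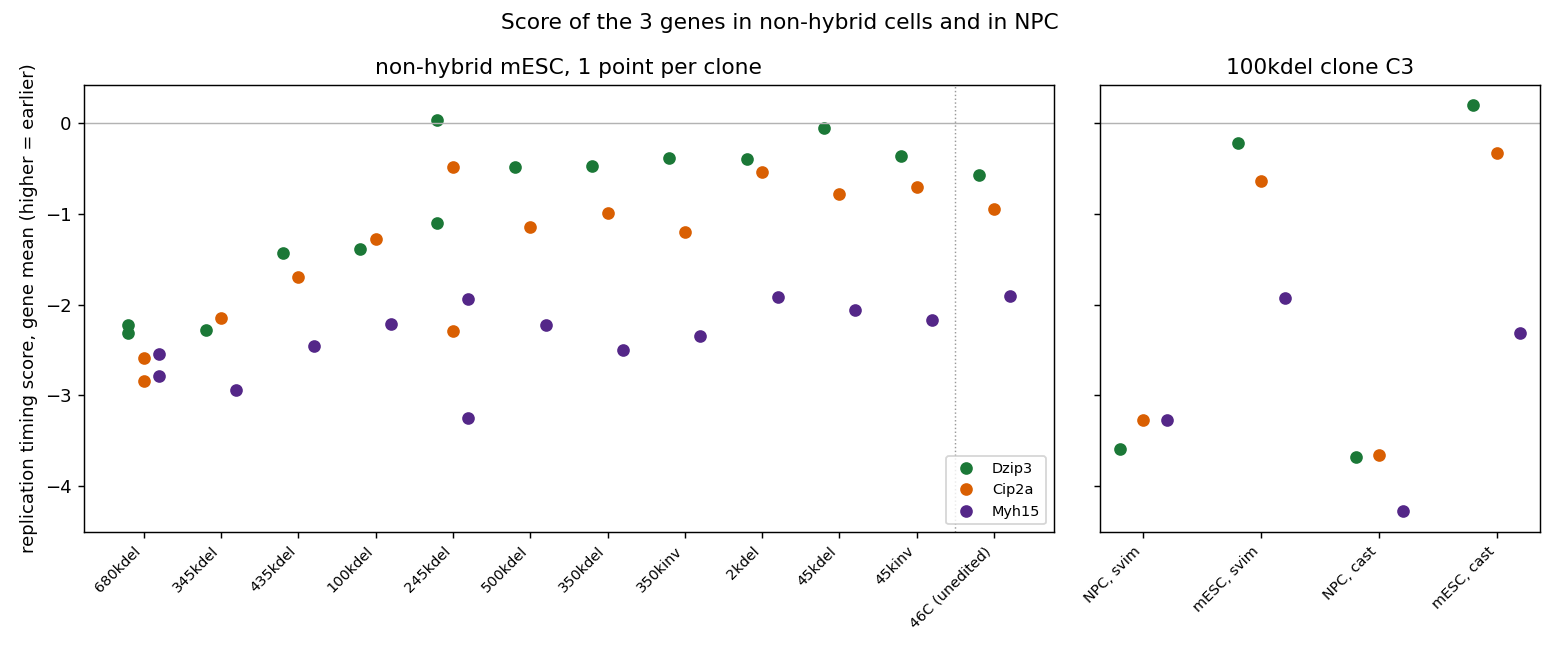
Score of Dzip3, Cip2a and Myh15 in non-hybrid clones by genotype, with unedited 46C rightmost (left panel). The right panel shows the NPC profile beside the averaged mESC libraries of 100kdel C3 on each allele. Points are single clones. The 345kdel and both 680kdel clones lie lowest for Dzip3, at -2.23 to -2.31, 245kdel 28 lies lowest for Myh15, at -3.24, and in NPC all 3 genes lie at -3.27 or lower.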

How the data were processed

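The authors deposited a table of replication timing scores, 1 per 5 kb position of chromosome 16, made from the early and late fractions. Per the submitters' processing notes, Bowtie2, SAMtools, bedtools and mm10 were used. The sources used here do not give versions, smoothing or scaling. Every column has an interquartile range of 4.60, so the columns were scaled before deposit. Depth is unknown, and the number of clones sets the precision. Of the table's columns, 123 were used and 6 that match no listed sample were not.

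Samples were grouped by the labels' genotype and background. A clone with several libraries entered as their mean, and n is the number of clones. Gene scores are means over the gene body (RefSeq, GRCm38). Each genotype was compared with the 5 comparison clones, or a comparison genotype with those of other genotypes, by limma 3.58.1 in R 4.3.3 (lmFit and eBayes), two-sided, on svim, cast and svim minus cast. Non-hybrid genotypes were fitted together and compared with 46C. P-values were Benjamini-Hochberg adjusted over all genes, with a threshold of 0.05. Windows of 50 kb with at least 50 percent of positions were tested likewise, leaving out positions inside the deletions compared. The test was checked on simulated independent values with a common spread, which do not mimic the smoothing of these scores. The design had assumed a log ratio. The score is continuous with both signs, and the test was kept.

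The members, lists and comparison clones were chosen with earlier results of these data known. Named are the 3 members in every group, the neighbouring genes as counts with values for those next to the members, the 3 genes outside the region that follow them most closely, and clones that differ from their genotype's others by more than the comparison clones' range. Cd47 was named after its values were seen. Of 10 neighbours listed, 8 were found. Alternatives were rescaling, quantile normalization, a 50 kb window at the gene start, first libraries only, limma with trend and robust, other window sizes and border scores, 3 comparison clones, and leaving out each clone.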

Additional observations from a re-analysis of the deposited data

Results flagged for a closer look

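Dzip3 in 4k.b.c.del was flagged because limma called its svim minus cast, which departed by -2.28 ± 0.46 (SE, n = 1 and 5 clones). The difference from the comparison clones was -1.85 on svim and 0.43 on cast. This genotype has the lowest mean Dzip3 score on svim, so it was not picked apart from its svim value. The only clone, G12, scored -1.95 on svim and 0.51 on cast, against -0.62 to 0.32 on svim and -0.48 to 0.64 on cast in the comparison clones. The call was lost without 30kdel C2, with 3 comparison clones without the 30kdel, and for 50 kb at the gene start. The genotype has 1 clone, so its own spread is not measured. Groups of 4 or more clones were also searched for a clone far from the rest: 0 of 18 sets of values held one, where chance gives about 1 in 20.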

How the results depend on the processing

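For the single genes, 63 results were recomputed under 756 alternatives: 718 kept direction and side of the threshold, 24 gained a call, 3 lost one and 11 changed sign. Only 1 of the 63 results was called at first, Dzip3 in 4k.b.c.del on the allele difference, and all 3 lost calls were of that result. The others began uncalled, many far from the threshold, so their staying uncalled says little about stability. Causes were not tested. Changes of sign, in uncalled differences: bc.del Myh15 on svim ran from -1.27 to 0.44 when 1 clone was left out (0.44 without D12); 4kdel Myh15 on svim was 0.0601 after quantile normalization and -0.81 to 0.0849 when 1 clone was left out (0.0849 without C6); a.del Myh15 on cast was 0.18 rescaled and 0.31 after quantile normalization. For 24.5kinv, rescaled and quantile values were -0.96 and -0.83 for Dzip3 and -0.60 and -0.49 for Cip2a on svim, and -0.51 and -0.51 for Dzip3 on cast.

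Of the 3 genes, the number called on the allele difference in abc.del was 0, but 1 after quantile normalization (Cip2a) and 2 with trend and robust, and 0 to 2 when 1 clone was left out (2 without 24.5kinv 3). In 4k.b.c.del it was 1, but 0 for 50 kb at the gene start (limma adjusted p = 0.0778), 2 with trend and robust, 0 with 3 comparison clones without the 30kdel (limma adjusted p = 0.0745), and 0 to 2 when 1 clone was left out. Over the other 20 genotypes the count of 0 became 1 on svim and 1 on cast with 3 comparison clones, 1 on cast and 2 on the allele difference with trend and robust, and 0 to 1 on cast (1 without 14kdel D11 or 30kdel C2) and on the allele difference (1 without 30kdel B11) when 1 clone was left out. In non-hybrid cells, calls appeared in the 345kdel and the 680kdel without 245kdel 25 or 28, and in the other genotypes without 25. The 680kdel clones were then the only pair that gave the spread, so these calls are no support.

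The right end of the called windows on svim was 48900000 in abc.del (48800000 with 3 comparison clones, 48800000 to 48950000 when 1 clone was left out) and 48850000 for ab.del (48250000 and 48400000 to 48900000). For ac.del it was 48850000 (48800000 to 48950000 when 1 clone was left out). For the allele difference in ab.del it was 48850000 (48550000 with 3 comparison clones, 48500000 to 48850000 when 1 clone was left out). No run was left under 20 alternatives: rescaled on svim in c.del, ac.del and ab.del; with 3 comparison clones on svim in ac.del and c.del and for the allele difference in 4k.b.c.del; and without some single clones in ac.del (H8), c.del (C9, A12, B11, 30kdel B11 or C2) and 4k.b.c.del (30kdel B11 or C2).

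With a border at a score of 1, the comparison clones' median was 48800000 on svim and 48800000 on cast, and that of c.del on cast 48842500. With a score of -1, it was 49047500 in c.del on cast and 48930000 in bc.del on svim, where D12 lay at 48740000 and B3 at 49120000, inside the comparison clones' range of 48990000 to 49210000. Rescaled it was 48720000 in bc.del on svim, from D12 alone. The comparison clones' border then lay between 48745000 and 48985000 on svim (median 48935000) and between 48740000 and 49000000 on cast (median 48920000). Both low ends were 24.5kinv 3, and c.del C6 lay at 48740000 on svim, close to that end. No paired analysis was possible because the numbers rep1 and rep2 mark repeat libraries of 1 clone, not pairs across genotypes. The main limits are 1 to 4 clones a genotype, 5 edited comparison clones in place of unedited ones, smoothing, and unknown depth.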
